A study of Mus musculus with 3 samples.

Results

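The transcripts of 10 *Sox* genes were described in the maxillary process of E10.5 mouse embryos that overexpress *Dlx2* in the neural crest. The genes were chosen by name from 55401 counted genes. They are *Sox2* and *Sox3* (SoxB1 group), *Sox21* (SoxB2), *Sox4*, *Sox11* and *Sox12* (SoxC), *Sox5* and *Sox6* (SoxD), and *Sox8* and *Sox9* (SoxE). The data are 3 bulk RNA-Seq libraries of *Wnt1cre; Rosa26Dlx2/-* embryos, called OE replicates 1 to 3. In these embryos Cre recombinase under *Wnt1* control removes a stop cassette from a *Dlx2-3xFlag* transgene with the CAG promoter at *Rosa26*. The transgene is therefore switched on in neural crest cells and their descendants, while the epithelium, endothelium and blood of the same dissected tissue come from other lineages. No wild-type library was analysed here. Each value below is thus a level in OE tissue, and no genotype comparison was made. The labels speak of independent RNA samples but do not say how many embryos or litters each one holds, so the spread between them may be partly technical.

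SOX proteins are transcription factors that bend DNA through an HMG box, and the letter groups collect genes with closely related boxes. SoxB1 factors keep neural and placodal progenitors undifferentiated, and the SoxB2 factor *Sox21* counteracts them. SoxC factors are widely active in embryonic mesenchyme and in young neurons, where they support survival and differentiation. In the head skeleton the SoxE factor *Sox9* is required for cartilage formation, and the SoxD factors *Sox5* and *Sox6* act with it on cartilage matrix genes.

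The relation between the 10 genes is easiest to see in the coding stretch that all of them share. It is the longest run of residues common to the 10 encoded proteins, 10 residues within the HMG box. The 30 bases behind it were read from GENCODE M21 transcripts (GRCm38, mm10) and are shown because they tell which bases separate reads of one family member from those of another. Capitals mark bases that differ from *Sox2*.
Sox2: aagaggcccatgaacgccttcatggtatgg
Sox3: aagCgAcccatgaacgcGttcatggtGtgg
Sox21: aagCggcccatgaacgccttcatggtGtgg
Sox4: aagCggcccatgaacgccttTatggtGtgg
Sox11: aaACggcccatgaacgccttcatggtGtgg
Sox12: aagCggccGatgaacgcGttcatggtGtgg
Sox5: aagCgTccAatgaaTgccttcatggtGtgg
Sox6: aagCgAccAatgaaTgcGttcatggtTtgg
Sox8: aagCggcccatgaaTgccttcatggtGtgg
Sox9: aagCgAcccatgaacgccttcatggtGtgg
From 2 to 6 of the 30 bases differed from *Sox2*, with the fewest in *Sox21* and the most in *Sox6*. In *Sox2* the stretch lies at chr3:34650545-34650574 on the plus strand, in the only exon of the gene. In *Sox9* it lies at chr11:112782900-112782929 on the plus strand, in exon 1 of 3. In *Sox5* and *Sox6* it lies far downstream, in exon 13 of 15 (chr6:143841247-143841276, minus strand) and exon 14 of 16 (chr7:115489736-115489765, minus strand).

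Over a window of 79 codons (237 bases) around this stretch, genes of the same letter group were 82.3% to 88.6% identical base by base (8 pairs). Genes of different groups were 53.6% to 73% identical (37 pairs). The longest run of bases shared by any pair of transcripts was 48 bases, between *Sox4* (chr13:28952749-28952796, minus strand) and *Sox11* (chr12:27342166-27342213, minus strand). It is shown because it is the place where reads of 2 abundant members are hardest to tell apart.
Sox4 and Sox11: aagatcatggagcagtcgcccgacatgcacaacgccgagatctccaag
The reads were 150 bp long and paired, so no pair of members shared an exact run that covers a whole read. The median of the longest shared runs over the 45 pairs was 19 bases.

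The genes also differ in build. *Sox2*, *Sox3*, *Sox21*, *Sox4* and *Sox11* are annotated with a single exon, and the longest transcript of *Sox12* also has 1 exon. *Sox8* and *Sox9* have 3 exons within 4.795 kb and 5.54 kb of genome, whereas *Sox5* and *Sox6* span 953.6 kb and 567.9 kb. Exons of annotated genes on the opposite strand overlap 18.8% of the exonic bases of *Sox21* (*Gm4675*), 54.6% of *Sox4* (*Gm26735*), 9.25% of *Sox5* (*Sox5os1*) and 10.6% of *Sox8* (*2810468N07Rik*). The strand setting of the counting is not given in the sources used here, so it is not known whether all reads of these stretches were counted for the *Sox* gene. This would bear most on the level of *Sox4*, provided that *Gm26735* was counted as a gene. *Gm4675* and *Sox5os1* had at most 4 counts in any library, and *2810468N07Rik* had 159, 184 and 303 counts in replicates 1, 2 and 3. *Gm26735* was not among the counted genes under its M21 identifier and was not analysed here.

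The libraries held 35351031 to 40057435 counts on genes. At that depth 3 counts, taken as the limit of detection, correspond to 0.0777 to 0.0843 counts per 1000000 scaled counts (CPM), a limit that covers counting error only. *Dlx2*, the gene of the transgene, was at 235, 201 and 183 CPM in replicates 1, 2 and 3. Mesenchyme markers were abundant in each library, with a sum over 5 genes of 1461, 1473 and 1574 CPM. Its members went both ways, with *Prrx1* and *Pdgfra* highest in replicate 1 and *Prrx2*, *Twist1* and *Msx1* highest in replicate 3. The libraries also differed in other ways. *Xist*, made from the inactive X chromosome, was at 671.5 CPM in replicate 1 and at 0.309 and 0.558 CPM in replicates 2 and 3. The Y-linked genes *Uty*, *Kdm5d*, *Eif2s3y* and *Ddx3y* summed to 0, 146 and 109 CPM. Replicate 3 was lower in long transcripts: genes with over 8000 exonic bases had a median deviation of -0.37 there on the log2 scale, and genes with up to 2000 had 0.43. Neuron, epithelium, eye and pigment cell markers also differed between libraries, and their values follow beside *Sox* genes with the same highest or lowest library.

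All 10 *Sox* genes were detected in every library, and all 10 passed the filter on low values, a mean of 10 or more counts per library. Their median level was 27.8 CPM, against 14.0 CPM over the 17115 genes that passed.

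**Figure D1:**
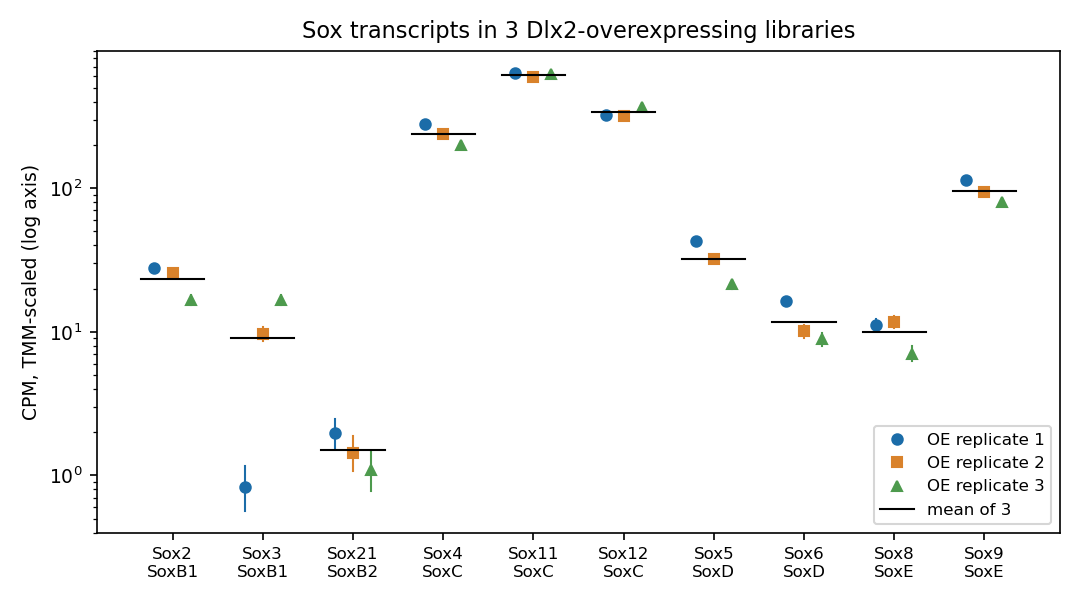
Level of each of the 10 Sox genes in the 3 OE libraries, in TMM-scaled CPM on a log axis. Symbols are libraries, vertical lines are exact 95% Poisson intervals of the counts (hidden by the symbol where narrow) and black bars are means; the 3 SoxC genes lie highest on this scale, and for Sox3 replicate 1 (0.829 CPM) stands far below replicates 2 and 3 (9.64 and 16.7 CPM).

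The SoxC genes were the most abundant of the 10 per transcript length. *Sox11* was at 628, 591 and 619 CPM in replicates 1, 2 and 3, a mean of 612.5 ± 19.3 (SD, n = 3). The highest library was 1.06 times the lowest, the smallest ratio of the 10 on this scale with all 3 libraries. It was no longer the smallest without replicate 3 or after the trend on exonic length was removed. *Sox12* was at 324, 315 and 369 CPM, a mean of 336 ± 29.0 (SD, n = 3). It was highest in replicate 3, unlike *Sox4*, which had 10739, 8405 and 7533 counts, a mean of 238 ± 39.2 CPM (SD, n = 3). For *Sox4* replicate 1 was highest and replicate 3 lowest, and the 95% counting intervals of the 3 libraries did not overlap. Together the 3 SoxC genes gave 81.4 ± 1.58% (SD, n = 3) of the summed per-length level of the 10 genes, from 80.3% to 83.2% in single libraries. Of the same sum, the SoxE members gave 10.8 ± 1.55%, the SoxB members 6.65 ± 0.878% and the SoxD members 1.23 ± 0.363% (SD, n = 3). These shares depend on the length used, which was varied for them after the data were seen. With the longest transcript of each gene the SoxD share was 2.33 ± 0.679%, and with coding length the SoxC share was 89.7 ± 1.43%, the SoxE share 5.96 ± 0.908% and the SoxB share 2.82 ± 0.291% (SD, n = 3). SoxC was the largest group among the 10 genes with each of the 3 lengths. The shares leave out *Sox* genes that are not among the 10. One of these is *Sox13*, the third SoxD gene, whose level per length (given below) was above *Sox5* and *Sox6* in each library.

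Of the SoxE genes, *Sox9*, the cartilage regulator, was at 114, 93.9 and 80.5 CPM in replicates 1, 2 and 3, a mean of 96.0 ± 16.6 (SD, n = 3). *Sox8*, a related factor with overlapping activity, was at 11.1, 11.7 and 7.03 CPM, a mean of 9.94 ± 2.53 (SD, n = 3). Replicate 3 was lowest for both. Replicates 1 and 2 overlapped for *Sox8* within counting error, with 95% Poisson intervals of 10.1 to 12.2 and 10.6 to 12.8 CPM. For *Sox9* the intervals of all 3 libraries were separate.

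The SoxD genes have long transcripts with many exons. *Sox5* was at 43.0, 32.2 and 21.4 CPM in replicates 1, 2 and 3, a mean of 32.2 ± 10.8 (SD, n = 3). *Sox6* was at 16.2, 10.1 and 8.87 CPM, a mean of 11.7 ± 3.96 (SD, n = 3). Replicate 1 was highest and replicate 3 lowest for both genes, by 2.01-fold for *Sox5* and 1.83-fold for *Sox6*. Genes with over 8000 exonic bases had median deviations in the same order (0.26, 0.11 and -0.37), and after the length trend over all genes was removed the range between libraries was 0.32 instead of 1.01 on the log2 scale for *Sox5* and 0.50 instead of 0.87 for *Sox6*. Replicate 1 stayed highest for both after that step, whereas the lowest library for *Sox6* became replicate 2.

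Among the cartilage matrix genes that *Sox9*, *Sox5* and *Sox6* are known to regulate, *Col2a1*, the gene of type II collagen, was at 896, 1043 and 1140 CPM in replicates 1, 2 and 3. In CPM it was lowest in replicate 1, where *Sox9*, *Sox5* and *Sox6* were highest. Per length it was highest there, at 362.3, 360.9 and 309.2 TPM (a measure defined below). *Hapln1*, a link protein of cartilage matrix, ran opposite to *Col2a1* in CPM, at 52.5, 35.1 and 17.7. So did *Col11a1*, of type XI collagen, at 51.8, 48.3 and 30.8 CPM. *Col9a1*, of type IX collagen, was at 100.4, 125 and 102 CPM. *Acan*, the proteoglycan of mature cartilage, had 20, 17 and 7 counts, and *Matn1*, another gene of mature cartilage, had 1, 2 and 1. Of the 10 cartilage genes on the list 9 passed the filter, and 8 of the 9 differed beyond counting error, against 81.5% of all genes. The highest library was replicate 1 for *Acan*, *Col11a1* and *Hapln1* (39.6% of all genes), replicate 2 for 2 genes (17.2%) and replicate 3 for 4 (43.2%). The median level of the list was 14.9 CPM.

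The SoxB genes did not vary alike between libraries. *Sox2* was at 28.0, 25.8 and 16.6 CPM in replicates 1, 2 and 3, a mean of 23.5 ± 6.01 (SD, n = 3), with replicates 1 and 2 overlapping in their counting intervals and replicate 3 below both. After the length trend was removed its range between libraries was 1.14 instead of 0.75 on the log2 scale. *Sox21*, the lowest of the 10 per length, was at 1.97, 1.43 and 1.09 CPM, a mean of 1.497 ± 0.444 (SD, n = 3). It rested on 76, 51 and 41 counts, and the 95% Poisson intervals of neighbouring libraries overlapped (1.55 to 2.47, 1.07 to 1.88 and 0.781 to 1.48 CPM).

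*Sox3* lies on the X chromosome (chrX:60891366-60893430, minus strand) and was at 0.829, 9.64 and 16.7 CPM in replicates 1, 2 and 3. These values are 32, 343 and 630 counts, and replicate 1 stood apart from the other 2 libraries. The ratio of the highest to the lowest library was 20.2, and 133 of 17115 genes, *Sox3* included, had a ratio at least as large. A further 59 genes had 0 counts in a library and so no ratio. The mean was 9.06 ± 7.96 CPM (SD, n = 3), and without replicate 1 the range was 0.79 instead of 4.25 on the log2 scale. *Sox1*, the third gene of the SoxB1 group, was at 0.726, 7.95 and 11.1 CPM. The Euclidean distance between the deviation profiles of *Sox3* and *Sox1* over the 3 libraries was 0.3001 on the log2 scale, against 3.64 between *Sox3* and *Sox2*. The library with low *Sox3* was the one with *Xist* and without counts on the 4 genes of the Y chromosome, and the part of embryo sex in this difference was not tested.
Markers of eye and forebrain were also lowest in replicate 1. Their sum over 6 genes (*Pax6*, *Rax*, *Six3*, *Six6*, *Lhx2* and *Otx2*) was 29.6 CPM in replicate 1, 152 in replicate 2 and 144 in replicate 3. All 6 were lowest in replicate 1, against 39.3% of all genes, and none was at 0 in any library. *Rax*, a gene of the eye field, was at 0.233, 12.6 and 21.5 CPM. The pigment cell list (*Pmel*, *Dct*, *Mlana*, *Tyr*, *Tyrp1* and *Trpm1*) had sums of 4.97, 33.7 and 155 CPM, with *Tyr* and *Tyrp1* at 0 counts in replicate 1. The blood list (*Hba-a1*, *Hbb-bt* and *Hbb-y*) had sums of 1132, 2100 and 2828 CPM. Both lists were thus lowest in replicate 1 and highest in replicate 3, as was *Sox3*. For *Sox2*, *Sox21*, *Sox4*, *Sox9*, *Sox5* and *Sox6*, highest in replicate 1, the lists of other cell types stood as follows. The epithelium list had sums over 6 genes of 385, 245 and 236 CPM, with no gene at 0. Of its 6 genes 5 were highest in replicate 1, against 39.6% of all genes. The neuron list had sums over 9 genes of 273, 24.3 and 35.9 CPM and the glia list sums over 7 genes of 63.0, 20.5 and 18.8 CPM. All 9 neuron genes and 5 of the 6 glia genes that passed the filter were highest in replicate 1, against the same 39.6%. *S100b*, a marker of mature glia, had 0, 0 and 1 counts. In bulk tissue a difference in the number of cells of one type cannot be told apart from a difference in RNA per cell, and the part of these cell types in the *Sox* values was not tested.

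**Figure D2:**
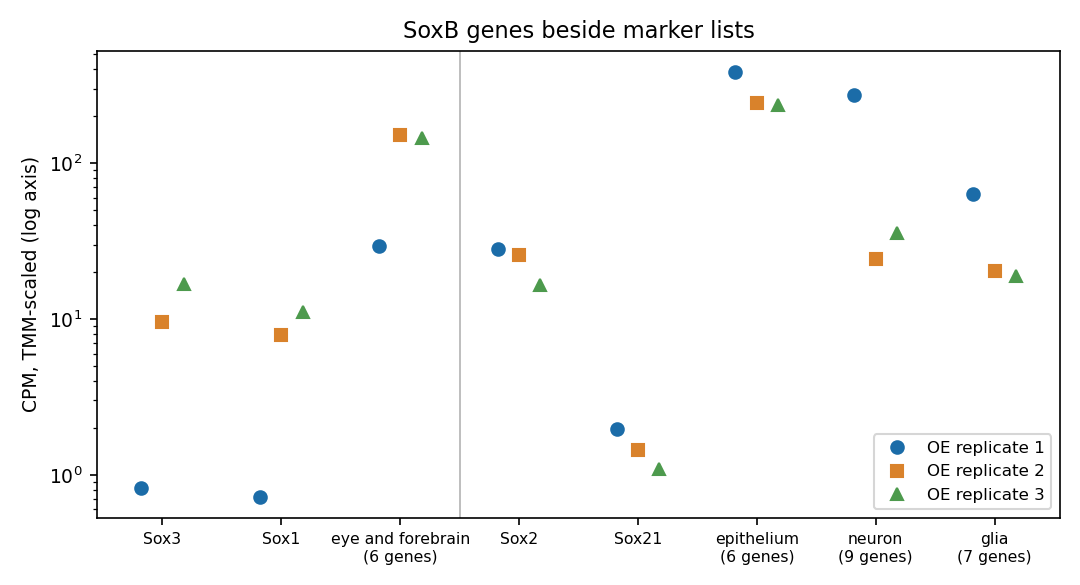
SoxB genes (Sox3, Sox1, Sox2, Sox21) beside the summed level of 4 marker lists in the 3 OE libraries, in TMM-scaled CPM on a log axis; each symbol is 1 library. Left of the grey line replicate 1 is lowest in each column (0.829 CPM for Sox3, 0.726 for Sox1 and 29.6 for the eye and forebrain list), and right of it replicate 1 is highest.

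Whether the 3 counts of a gene differed by more than counting error was tested over the 17115 genes that passed the filter (chi-square test of the counts given TMM-scaled depths, Benjamini-Hochberg adjusted p under 0.05). This compares libraries and not conditions. It called 81.5% of all genes and 10 of 10 *Sox* genes. Adjusted p-values from this chi-square test ran from 9.53e-117 for *Sox3* to 0.00891 for *Sox21*. With 1 library left out, it called 8 *Sox* genes and 71.2% of genes without replicate 1, 9 and 77.7% without replicate 2, and 6 and 48.8% without replicate 3. The *Sox* genes no longer called were *Sox21* and *Sox6* without replicate 1, *Sox11* without replicate 2, and *Sox2*, *Sox21*, *Sox12* and *Sox8* without replicate 3.
The median ratio of the highest to the lowest library was 1.67 over the *Sox* genes, against 1.695 over all genes tested. A ratio of at least 2 was found for *Sox3* and *Sox5*, 2 of 10 genes, against 34.8% of all genes, counting those at 0 in a library as past the limit. *Sox5* was at 2.01, just past that limit, and without replicate 1 the limit was reached by 0 of the 10 and by 18.3% of all genes. The biological coefficient of variation from edgeR estimates the relative SD beyond counting error, with each gene drawn toward the trend over all genes. It was lowest for *Sox11* (0.221) and highest for *Sox3* (0.808). The plain coefficient of variation of the *Sox11* CPM was 3.14%, so 0.221 is not its observed spread. The edgeR value lay under the common value of 0.371 for 8 genes, the exceptions being *Sox3* and *Sox21* (0.414), and for 58.8% of all genes.

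Replicate 1 held the highest value of 7 *Sox* genes, against 39.6% of all genes, and replicate 3 the lowest value of 7, against 45.6%. Replicate 2 was highest for *Sox8* (17.2% of all genes) and lowest for *Sox11* and *Sox12* (15.1%). Replicate 3 was highest for *Sox3* and *Sox12* (43.2%), and replicate 1 lowest for *Sox3* (39.3%). Highest in replicate 1 and lowest in replicate 3 were 6 genes (*Sox2*, *Sox21*, *Sox4*, *Sox5*, *Sox6* and *Sox9*), against 34.0% of all genes. *Sox11* was highest in replicate 1 with TMM scaling and in replicate 3 with upper quartile scaling, and it was lowest in replicate 3 with total counts. After the length trend was removed *Sox11* deviated by 0.30 on the log2 scale in replicate 3 and by -0.16 in replicate 1. Its range between libraries was then 0.46 instead of 0.09.

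**Figure D3:**
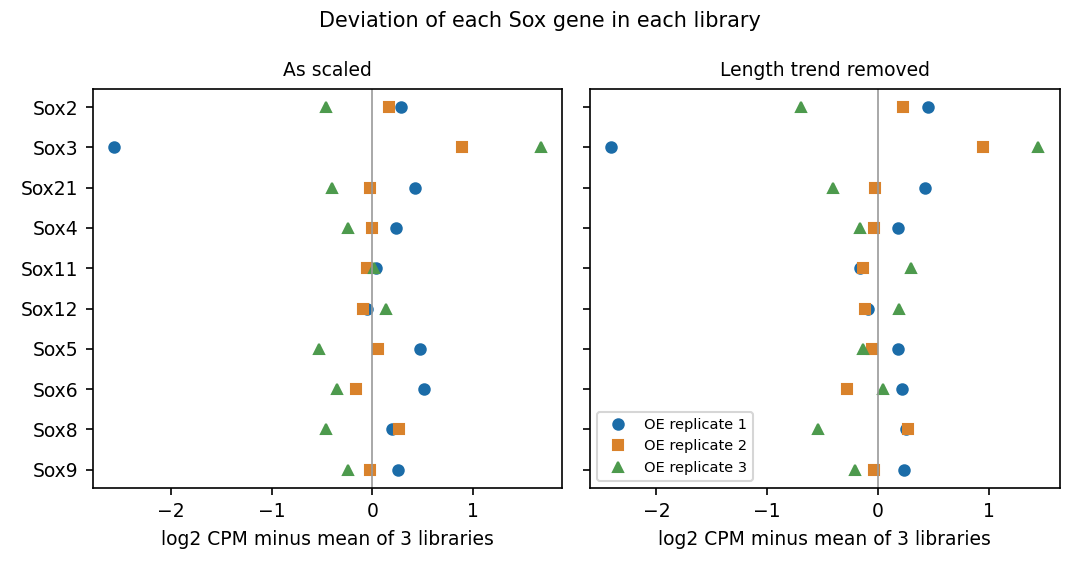
Deviation of each Sox gene in each OE library, as log2 CPM (prior count 2) minus the mean of the 3 libraries, before (left) and after (right) a smooth trend on exonic length over all genes was removed; each symbol is 1 library. Sox3 in replicate 1 lies at -2.57 before and -2.41 after, while the other 9 genes lie between -0.69 and 0.52 in both panels.

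The closest pair of deviation profiles was *Sox4* and *Sox9*, of different groups, at a Euclidean distance of 0.0269. *Sox2* and *Sox8* followed at 0.133 and *Sox11* and *Sox12*, both SoxC, at 0.154. Of 11279 other protein-coding genes with a mean of 100 or more counts, 673 lay within 0.1 of *Sox2*, 275 within 0.1 of *Sox9* and 541 within 0.1 of *Sox11*. The nearest were *Pnisr*, *Tm9sf1* and *Thap12* to *Sox2* (distances 0.00399 to 0.00513), *Zc2hc1a*, *Ino80d* and *Zfp687* to *Sox9* (0.00242 to 0.0107), and *Ssbp2*, *Decr1* and *Vezt* to *Sox11* (0.00433 to 0.00446).

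To compare genes with each other, levels were taken per length, as transcripts per 1000000 transcripts (TPM) from the exonic length of each gene. *Sox12* (235 ± 33.1 TPM, SD, n = 3) and *Sox11* (232 ± 47.9) led, followed by *Sox4* (160 ± 56.2), *Sox9* (74.7 ± 27.0) and *Sox2* (37.1 ± 15.5). The lower 5 were *Sox3* (12.2 ± 9.69), *Sox8* (10.3 ± 4.09), *Sox5* (7.36 ± 3.73), *Sox6* (2.59 ± 1.35) and *Sox21* (1.29 ± 0.614). The sum of the 10 genes was 957, 761 and 600.2 TPM in replicates 1, 2 and 3, whereas their CPM sums were 1445, 1327 and 1340.
With all 3 libraries, exonic length and TPM, neighbours in this order were mostly not separated by their spread. Among the 9 neighbouring pairs the ranges of the 3 libraries were separate for *Sox4* and *Sox9* alone (exact permutation test, two-sided, p = 0.1, adjusted p = 0.3). That p is the smallest that 3 against 3 values can give, so no pair could reach 0.05. The test took the values as unpaired, although both genes of a pair were measured in the same 3 libraries. Within each library, however, *Sox11* exceeded *Sox4*, *Sox4* exceeded *Sox9* and *Sox9* exceeded *Sox2* in 3 of 3. *Sox8* exceeded *Sox5*, *Sox5* exceeded *Sox6* and *Sox6* exceeded *Sox21* in 3 of 3 as well. *Sox12* exceeded *Sox11* in 1 of 3, *Sox2* exceeded *Sox3* in 2 of 3, and *Sox3* exceeded *Sox8* in 2 of 3. The count of separate pairs depended on the setting. It was 6 of 9 without replicate 1, 1 without replicate 2, 6 without replicate 3, 5 with coding length and 2 with the longest transcript. On CPM per 1000 exonic bases, a measure chosen after the data were seen, 5 of the 9 pairs had separate ranges in the same order. With coding length *Sox11* came before *Sox12*, and *Sox5* came before *Sox8* and *Sox3*. With the longest transcript *Sox5* also came before *Sox3* and *Sox8*. Without replicate 3 *Sox11* came first and *Sox3* came after *Sox8* and *Sox5*.

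**Figure D4:**
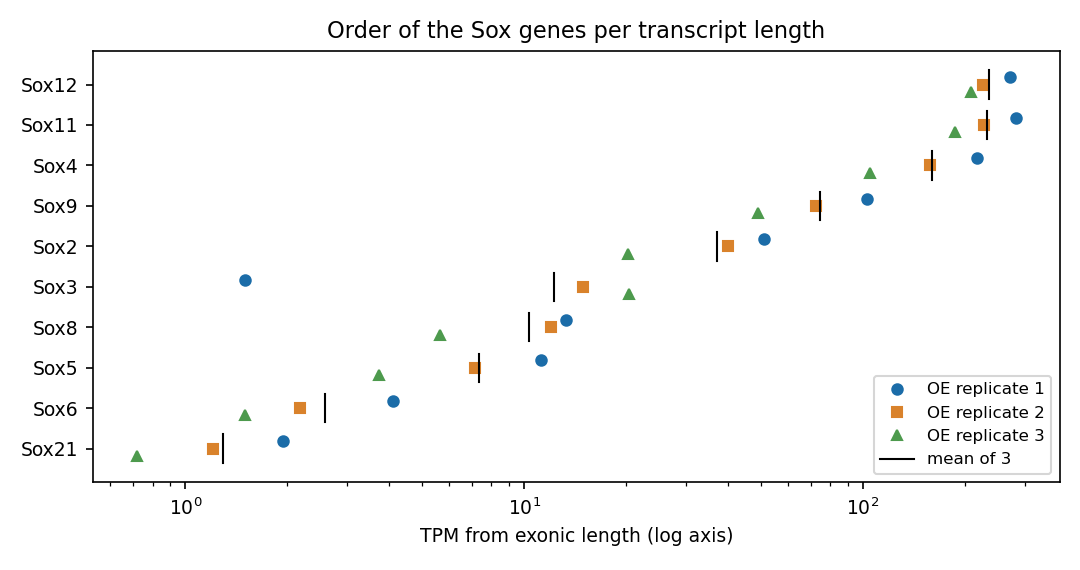
The 10 Sox genes ordered by mean level per transcript length, in TPM from exonic length on a log axis, with the 3 OE libraries as symbols and the mean as a black line. Levels run from 235 TPM for Sox12 to 1.29 for Sox21, and neighbouring genes overlap except Sox4 and Sox9.

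A list of 9 other *Sox* genes gave a frame for these levels. *Sox13*, the third SoxD gene, was at 82.4, 59.6 and 29.4 TPM in replicates 1, 2 and 3, above *Sox5* (11.2, 7.17 and 3.73 TPM) and *Sox6* (4.09, 2.17 and 1.499 TPM) in each library. The SoxD share given above leaves *Sox13* out. *Sox7*, *Sox17* and *Sox18*, the SoxF genes of endothelium, had means of 8.07, 9.36 and 29.2 CPM, and the endothelium marker sum over 5 genes was 243, 265 and 178 CPM. *Sox7* and *Sox17* were also lowest in replicate 3, whereas *Sox18*, at 26.19, 30.62 and 30.85 CPM, was highest there. *Sox14*, the other SoxB2 gene, was at 3.45, 2.28 and 1.51 CPM, highest and lowest in the same libraries as *Sox21*. *Sox30* and *Sox15*, known from germ cells and muscle precursors, were at 0.414 and 0.0898 CPM on average. *Sry*, on the Y chromosome, had 0 counts in every library, with upper 95% Poisson limits of 0.0956, 0.1036 and 0.0979 CPM in replicates 1, 2 and 3. Of these 9 genes 7 passed the filter, and 6 of the 7 were beyond counting noise, against 81.5% of all genes.
Transcripts named for a member were scarce. *Sox2ot*, a long noncoding RNA whose gene holds *Sox2* in an intron on the same strand without sharing exonic bases, was at 0.233, 0.253 and 1.03 CPM in replicates 1, 2 and 3, highest where *Sox2* was lowest. *Sox6os* had 6, 7 and 18 counts, and *Sox5it* and 5 antisense transcripts of *Sox5* had at most 2 counts each.
Partner and cofactor genes of SOX proteins were also measured. *Chd7*, a chromatin remodeller that binds SOX2, was at 200.5, 183 and 126 CPM. *Pou3f3*, a POU factor of the facial mesenchyme, was at 39.7, 25.6 and 36.6 CPM, whereas *Pou3f2*, a neural partner of *Sox2*, was at 0.829, 0.140 and 0.504. Of the 7 partner genes 6 were highest in replicate 1, against 39.6% of all genes. The exception was *Pax6*, a partner of *Sox2* in the lens and eye, at 4.84, 30.7 and 24.9 CPM.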

How the data were processed

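Maxillary process RNA of 3 *Wnt1cre; Rosa26Dlx2/-* samples (E10.5) was sequenced in bulk after poly-A selection as paired 150 bp reads. The authors mapped reads to mm10 with STAR 2.7.3a and deposited raw counts per gene, as whole numbers without normalization. The submitters' processing notes also name FastQC and HTSeq 0.12.4. The annotation release and strand setting are not given in the sources used here. Replicates are numbered in accession order.

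Rows that name no gene held 14.2%, 15.7% and 16.4% of counted reads and were left out. Of 55401 identifiers 55141 matched GENCODE M21, which also gave exonic and coding lengths, coordinates and sequences. TMM scaling and dispersions came from edgeR 4.0.16 in R 4.3.3, and alternatives from DESeq2 1.42.0. For deviations, 2 was the prior count added before the log2 of CPM. The length trend was a lowess fit (fraction 0.3, statsmodels 0.14.6). Chi-square and exact permutation tests used scipy 1.17.1. The chi-square step and the dispersion estimate were tested on simulated data. With 1 group no test between conditions was possible.

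The rule for genes the text may name covered the 10 genes, the other *Sox* genes, genes sharing exonic bases with a member or named for one, lists of cartilage, partner and cell type marker genes (some given only as counts and sums), and the 3 genes nearest in profile to *Sox2*, *Sox9* and *Sox11*. Members and lists were chosen with earlier results of these data known. Values of lens, macrophage and muscle lists stand in the closing section. One gene each of the eye and blood lists is not reported here and was left out of the sums.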

Additional observations from a re-analysis of the deposited data

How the results depend on the processing

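Other settings gave 233 values for 40 results. By the criteria for a shift (1 SD for a level, a factor of 1.5 for a count, the threshold for a p), 194 of them did not shift, and 0 reversed. Leaving out each replicate in turn, 6 to 9 *Sox* genes were beyond counting noise instead of 10, with the fewest without replicate 3. *Sox* genes with a ratio between libraries of at least 2 numbered 0 to 2 in these fits, 1 with DESeq2 size factors, 1 with upper quartile scaling and 4 with total counts, instead of 2. Neighbouring pairs with separate ranges per length numbered 1 to 6 without single replicates, 5 with coding length, 2 with the longest transcript and 5 on CPM per 1000 exonic bases (chosen after the data were seen), instead of 1. The median biological coefficient of variation was 0.306 and ran from 0.154 to 0.398, lowest without replicate 3. The median range between libraries was 0.74 on the log2 scale, from 0.26 to 0.70 without single replicates and 0.48 with the length trend removed. The cause was not tested. Depth limits *Sox21*, with 41 to 76 counts. No paired analysis between conditions was possible because there is 1 group.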

Other observations

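Other marker lists were measured in the libraries from which the *Sox* levels came. The macrophage list (*Csf1r*, *Ptprc*, *Aif1* and *Cx3cr1*) had sums of 17.5, 19.8 and 16.4 CPM in replicates 1, 2 and 3, the muscle list (*Myf5*, *Myod1* and *Myog*) of 4.22, 2.36 and 4.91, and the lens list (*Cryaa*, *Cryba1*, *Foxe3* and *Pitx3*) of 1.19, 2.13 and 2.34. The lens genes *Cryaa* and *Cryba1* had 0, 0 and 4 and 3, 0 and 0 counts. Of the genes that passed the filter, 4 of 4 macrophage, 3 of 3 muscle and 1 of 2 lens genes were beyond counting noise, against 81.5% of all genes.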
